A study of Mus musculus with 14 samples.

Results

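The 10 genes followed here belong to fibroblast growth factor (FGF) signalling, read in mouse primordial germ cells: the ligand Fgf9, the receptors Fgfr1, Fgfr2, Fgfr3 and Fgfr4, the feedback inhibitors Spry1, Spry2, Spry4 and Dusp6, and the transcription factor Etv5. They were read by the 26 probe sets to which the array annotation gives exactly 1 of these 10 symbols, of 34945 probe sets with a single symbol. In the tests each gene stood for 1 probe set, the one with the highest mean, so the 10 genes were read among 18193. The study measured RNA on Affymetrix arrays in 14 samples of 7 groups, with 2 biological replicates each, at embryonic day (E) 9.5, E10.5, E11.5, and in males and females separately at E12.5 and E13.5. The germ cells from E10.5 to E13.5 all carried a stella-EGFP transgene of mixed B6/CBA origin, inherited from the fathers of crosses with BDF1 females. They were sorted by flow cytometry on the EGFP fluorescence after trypsin digestion of genital ridges. The E9.5 cells were C57BL/6, came from an earlier study, and no sort of them is described in the sources used here. Each array started from 5 ng of RNA, given as the equivalent of 500 cells, amplified with 22 PCR cycles at E9.5 and with 12 at the later ages. Embryos up to E11.5 were not sexed, so those groups can hold cells of both sexes.

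FGFs are secreted proteins that bind receptor tyrosine kinases together with heparan sulphate chains on the cell surface. The receptors signal through adaptors, RAS and the kinase cascade that ends in ERK, and ERK signalling raises transcription of ETS factors such as Etv5 and of inhibitors such as the Sprouty genes and Dusp6, which dampen the same cascade. In the fetal mouse testis, FGF9 from somatic cells is known to favour male development of the gonad and of its germ cells.

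Fgfr3 and Etv5 were the members whose representative probe sets differed between groups by the fit across all genes. The promoter windows of these genes are given here as a description, and no link of the windows to the values was tested. The windows span 250 bases before to 50 bases after an annotated start, from RefSeq on GRCm38.p6, read 5′ to 3′ on the strand of the gene. Capitals mark the GC box (GGGCGG) and the CCAAT box (CCAAT) on either strand. Windows were on hand for 8 of the 10 genes, 10 windows in all, and none was used for Fgfr1 and Spry4.
Fgfr3 window A, chr5:33721474-33721773, plus strand: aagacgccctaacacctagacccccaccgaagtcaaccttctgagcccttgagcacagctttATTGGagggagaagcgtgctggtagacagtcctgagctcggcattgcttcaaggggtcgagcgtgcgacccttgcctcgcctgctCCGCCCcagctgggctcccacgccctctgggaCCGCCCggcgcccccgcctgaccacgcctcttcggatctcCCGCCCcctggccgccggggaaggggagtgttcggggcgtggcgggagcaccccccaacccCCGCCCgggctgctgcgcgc
Fgfr3 window B, chr5:33722056-33722355, plus strand: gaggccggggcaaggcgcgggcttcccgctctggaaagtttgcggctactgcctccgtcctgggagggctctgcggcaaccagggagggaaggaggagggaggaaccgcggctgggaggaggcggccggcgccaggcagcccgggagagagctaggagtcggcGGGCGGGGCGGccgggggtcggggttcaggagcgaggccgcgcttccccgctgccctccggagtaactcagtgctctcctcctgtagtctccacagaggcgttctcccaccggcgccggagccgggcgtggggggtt
Etv5 window A, chr16:22438319-22438618, minus strand: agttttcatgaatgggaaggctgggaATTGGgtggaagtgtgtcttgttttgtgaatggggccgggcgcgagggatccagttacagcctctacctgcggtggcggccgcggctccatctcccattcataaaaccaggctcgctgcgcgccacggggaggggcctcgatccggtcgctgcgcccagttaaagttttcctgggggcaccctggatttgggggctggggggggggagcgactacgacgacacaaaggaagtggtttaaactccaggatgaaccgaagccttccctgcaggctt
Etv5 window B, chr16:22439521-22439820, minus strand: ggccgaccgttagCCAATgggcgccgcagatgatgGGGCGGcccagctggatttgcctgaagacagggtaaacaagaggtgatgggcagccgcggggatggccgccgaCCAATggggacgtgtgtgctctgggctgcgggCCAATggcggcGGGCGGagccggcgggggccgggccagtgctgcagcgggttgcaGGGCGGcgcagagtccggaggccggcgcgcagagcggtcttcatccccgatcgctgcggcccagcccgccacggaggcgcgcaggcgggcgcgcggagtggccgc
The first Fgfr3 window held 4 GC boxes and 1 CCAAT box, and the other held 2 GC boxes that overlap by 1 base. The first Etv5 window held 1 CCAAT box and no GC box, and the other held 3 of each. GC boxes stood in 5 of the 10 member windows and in 35.7% of 32851 windows of the same length, and CCAAT boxes in 5 of 10 and in 37.4%. The ETS core CCGGAA, searched on both strands, was in neither gene's windows. It was found in 2 of the 10 member windows (Fgfr4 and Spry2) and in 14.9% of all windows. The E-box CACGTG was in 1 of the 10 (Fgfr2) and in 7.15% of all, and the palindrome TGACGTCA in 0 of 10 and in 1.79% of all. The letters are descriptions of these windows only.

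All values are log2 signals as the authors deposited them, so a difference of 1 is a 2-fold difference of signal, and signals of different probe sets are not on a common scale. Signals under 4.72, the median over all probe sets and arrays, are referred to as dim. Of the 26 member probe sets, 12 stood above that level on every array, 9 were dim on every array and 5 lay on both sides. Array medians ran from 4.66 to 4.80 and the lowest and highest correlations across genes within a replicate pair were r = 0.961 and r = 0.981. A comparison passed at an adjusted p under 0.05 from limma, with Benjamini-Hochberg adjustment over all genes. Of the 7 germ cell markers measured, Dppa3, the gene also called stella, read at least 13.09 and Pou5f1 at least 12.44 on every array. The mean over the list ran from 10.57 at E9.5 to 12.35 in E12.5 females. Between these groups Dazl went from 5.71 and 3.70 to 13.17 and 13.16, and Ddx4 from 9.27 and 8.92 to 12.60 and 12.45. Over all arrays Kit lay between 11.36 and 12.32, Dnd1 between 10.79 and 11.76, and Prdm1 between 9.60 and 11.03. In a bulk sample, fewer cells of one type and less RNA per cell cannot be told apart.

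Fgf9, the ligand, gave a low and even signal throughout. Its representative probe set read 5.10 and 5.45 at E9.5, 5.91 and 6.05 at E10.5, and 6.01 and 5.65 at E11.5. It then read 5.53 and 5.70 in E12.5 males against 6.17 and 6.18 in E12.5 females, and 5.68 and 6.05 in E13.5 males against 5.81 and 5.56 in E13.5 females. The sexes did not overlap at E12.5, where males were lower by a log2 difference of -0.56 (SE 0.25), which did not pass (limma adjusted p = 0.375), and they overlapped at E13.5. The other Fgf9 probe set was dim on all 14 arrays, between 2.14 and 3.74.

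Among the receptors, Fgfr3 was the one whose representative probe set passed between the sexes. Its probe set 1421841_at read 7.07 and 5.94 at E9.5, 6.61 and 6.94 at E10.5, and 7.51 and 7.12 at E11.5. The E12.5 arrays gave 6.94 and 6.88 in males against 9.29 and 9.46 in females. Those of E13.5 gave 5.84 and 6.49 in males against 10.44 and 9.79 in females. The 4 female arrays were thus the highest of all 14, and no male array reached the E11.5 values.

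Males were lower than females in Fgfr3 by a log2 difference of -2.46 at E12.5 (SE 0.29, 95% interval -3.11 to -1.82, limma adjusted p = 0.00164), which is a 5.52-fold difference of signal. One of the 10 members passed in that comparison, beside 2.39% of all genes. At E13.5 Fgfr3 was lower in males by -3.95 (SE 0.29, interval -4.60 to -3.30, limma adjusted p = 3.71e-05), or 15.5-fold. The sex difference at E13.5 kept its call under all 9 alternatives tried, with values between -4.60 and -2.16, the smallest with the mean of both Fgfr3 probe sets. At E12.5 that mean gave -1.13 and the call was lost (limma adjusted p = 0.11), and the other 7 alternatives kept it. The second Fgfr3 probe set, 1425796_a_at, was dim on every array, from 2.59 to 4.71, and showed no sex difference that passed.

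Over time, Fgfr3 was higher in E12.5 females (9.38 ± 0.12, SD, n = 2) than at E11.5 (7.32 ± 0.28), by 2.06 (SE 0.29, limma adjusted p = 0.00846), or 4.17-fold. It was the 1 member of 10 that passed there, against a background of 1.86% of all genes. The call was lost without any of 3 single arrays. Leaving out E12.5 female replicate 1 gave 2.15 (limma adjusted p = 0.0942), leaving out the other E12.5 female array gave 1.98 (limma adjusted p = 0.123), and leaving out E11.5 replicate 2 gave 1.87 (limma adjusted p = 0.0749). The mean of both probe sets gave 0.93 (limma adjusted p = 0.211). In E12.5 males the difference from the same E11.5 arrays was -0.41 (SE 0.29), which did not pass (limma adjusted p = 0.747). None of the 10 members passed in that male step, where 1.01% of all genes did. Since E11.5 was not sexed, the steps from it compare single sexes with cells that may be of both.

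For E13.5 against E12.5, Fgfr3 differed by 0.74 in females (limma adjusted p = 0.255) and by -0.75 in males (limma adjusted p = 0.27), and passed in neither. The change of the sex difference from E12.5 to E13.5 was -1.49 (SE 0.41, limma unadjusted p = 0.00453, adjusted p = 0.324). None of the 10 members passed in that test of change, and 2 of all genes did, 0.011%. In the order of group means, E13.5 females (10.12 ± 0.46) and E12.5 females (9.38 ± 0.12) were highest, and E11.5 (7.32), E12.5 males (6.91), E10.5 (6.78), E9.5 (6.51) and E13.5 males (6.17) followed. Of the neighbours in that order that were compared by a test, only E12.5 females against E11.5 differed, and the arrays of E12.5 males, E10.5, E9.5 and E13.5 males each overlapped with those of the next group.

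**Figure D1:**
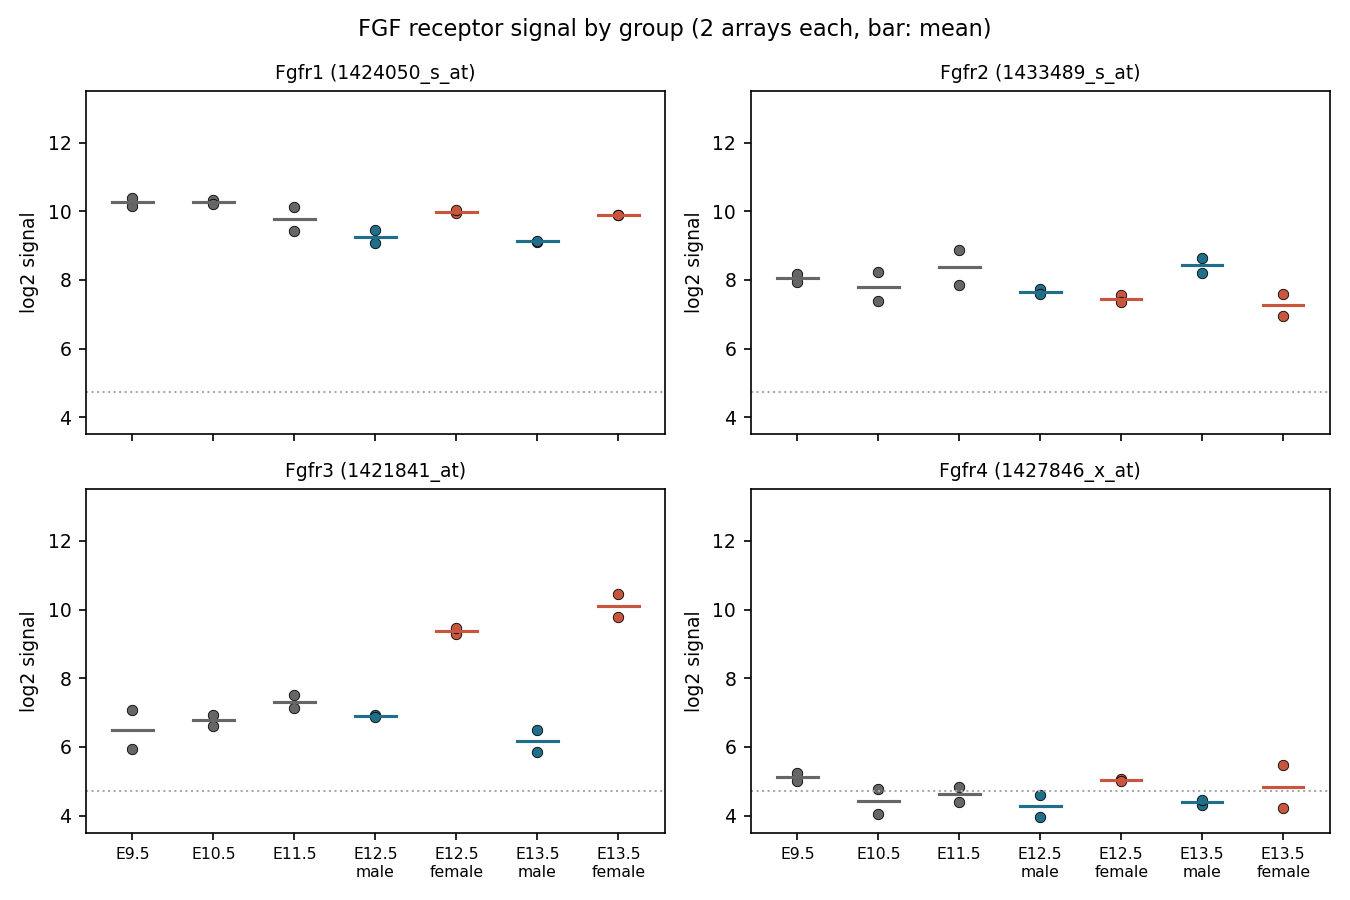
Log2 signal of the representative probe set of the 4 FGF receptors on each array, by group, with points for the 2 replicates, a bar for their mean and a dotted line at the table median of 4.72. Fgfr3 stands at 9.29 to 10.44 on the 4 female arrays of E12.5 and E13.5 and at 7.51 or below on all others, while Fgfr4 lies near the dotted line.

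Fgfr1, which was well above the table median in every group, was lower in males at all 3 of its probe sets. The representative one read 9.06 and 9.44 in E12.5 males against 9.96 and 10.02 in E12.5 females, and 9.11 and 9.14 in E13.5 males against 9.89 and 9.90 in E13.5 females. Males and females did not overlap at either age. The difference was -0.74 at E12.5 and -0.77 at E13.5 (SE 0.23 each), and neither passed (limma adjusted p = 0.156 and 0.0622). The unsexed groups read 10.14 and 10.37 at E9.5, 10.32 and 10.20 at E10.5, and 9.43 and 10.11 at E11.5, so both females and males at E13.5 lay below the E10.5 arrays.

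The other Fgfr1 probe sets gave differences of the same direction. In the fit of all 34945 probe sets, 1436551_at read 6.69 and 6.81 in E13.5 males against 7.56 and 7.61 in E13.5 females and passed (-0.83, SE 0.21, limma adjusted p = 0.0461). That call was lost without any one of the 4 arrays, without both second E13.5 arrays and with quantile normalization, with values of -0.90 to -0.71 over the alternatives. Probe set 1425911_a_at differed by -0.79 at E13.5 and did not pass (limma adjusted p = 0.109). At E12.5 the 3 probe sets differed by -0.74, -0.73 and -0.65 and none passed. The mean of the 3 passed at E13.5 (-0.80, limma adjusted p = 0.0206).

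Fgfr2 read 8.19 and 8.65 in E13.5 males against 6.94 and 7.58 in E13.5 females at its representative probe set, with no overlap. The difference of 1.16 (SE 0.38, interval 0.32 to 2.0) did not pass (limma adjusted p = 0.0864). At E12.5 it read 7.72 and 7.60 in males against 7.55 and 7.36 in females, a difference of 0.21 that did not pass. Earlier arrays were spread, at 8.16 and 7.95 at E9.5, 7.37 and 8.22 at E10.5, and 7.86 and 8.86 at E11.5. Of the other Fgfr2 probe sets, 1443211_at was dim on all arrays and 1420847_a_at was dim on all but E9.5 replicate 2, which read 5.79. The annotation does not say which splice forms each probe set reads.

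Fgfr4 gave little signal. Of its 5 probe sets, 4 were dim on all 14 arrays, and the representative one stood between 3.97 and 5.46, above 4.72 on 7 arrays. It read 4.59 and 3.97 in E12.5 males against 5.06 and 5.02 in E12.5 females. The E13.5 male arrays gave 4.32 and 4.45 against 5.46 and 4.23 in E13.5 females, with overlap. None of its differences passed in any comparison.

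The transcription factor Etv5 was the other member whose representative probe set passed. Probe set 1428142_at read 12.03 and 12.49 at E9.5, 12.49 and 12.63 at E10.5, and 12.38 and 12.55 at E11.5. At E12.5 it read 12.24 and 12.30 in males against 12.05 and 12.11 in females. At E13.5 it read 12.18 and 12.02 in males against 11.17 and 11.06 in females. The E13.5 female arrays were the lowest of the 14, and at both ages every male array was above every female array.

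At E13.5 Etv5 was higher in males by 0.98 (SE 0.14, interval 0.67 to 1.3, limma adjusted p = 0.00153), a 1.98-fold difference. With Fgfr3, 2 of the 10 members passed between the sexes at E13.5, a comparison in which 10.2% of all genes passed. All 9 alternatives kept the call, with values from 0.91 to 1.07. At E12.5 the difference was 0.19 (SE 0.14) and did not pass (limma adjusted p = 0.699). The sex difference at E13.5 exceeded that at E12.5 by 0.80 (SE 0.20, limma unadjusted p = 0.00249), which did not pass over all genes (limma adjusted p = 0.26).

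Within females, Etv5 fell by 0.96 on the log2 scale at E13.5 (11.12 ± 0.08) against E12.5 (12.08 ± 0.04; SE 0.14, limma adjusted p = 0.0144). Etv5 was the 1 member of 10 that passed in this step, next to 1.87% of all genes. The call was lost without any one of the 4 arrays. The value was -1.02 without E13.5 female replicate 1 and -0.91 without the other E13.5 female array, and -0.995 and -0.94 when E12.5 female replicate 1 or 2 was left out, with limma adjusted p between 0.0591 and 0.146. Males changed by -0.17 over the same day (limma adjusted p = 0.663). No member passed in the male step, where 2.09% of all genes did.

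The 3 Etv5 probe sets gave differences of the same sign in both comparisons. In the probe set fit, 1420998_at read 8.07 and 8.06 in E13.5 males against 6.45 and 7.30 in E13.5 females (difference 1.19, limma adjusted p = 0.0253), and it differed by -1.49 in E13.5 females against E12.5 females (limma adjusted p = 0.0434). The sex difference of 1420998_at lost its call without either male array or E13.5 female replicate 1 (0.77, limma adjusted p = 0.158), and its female step without E13.5 female replicate 1 (-1.06, limma adjusted p = 0.253) or either E12.5 female array. Both were also lost without both second E13.5 arrays. Probe set 1450082_s_at gave 0.66 between the sexes at E13.5 and -1.14 in the female step, and passed in neither. Its replicates were less alike, at 10.86 and 9.56 in E13.5 males.

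Spry4 depended on the probe set. The representative one, 1440867_at, read 6.39 and 6.25 in E12.5 males against 6.43 and 6.60 in E12.5 females, and 5.56 and 5.87 in E13.5 males against 5.62 and 5.86 in E13.5 females. None of its differences passed, the step of the females being -0.78 (limma adjusted p = 0.209). Probe set 1422021_at read 3.30 and 3.60 in E13.5 females against 6.47 and 6.16 in E12.5 females, a difference of -2.87 (SE 0.36, limma adjusted p = 0.0138). Probe set 1445669_at read 3.09 and 3.84 in E13.5 females against 6.11 and 5.91 in E12.5 females, a difference of -2.55 (SE 0.35, limma adjusted p = 0.0197). These calls rest on few arrays: the first was lost without any one of the 4 (-3.02 to -2.71), and the other without E13.5 female replicate 1 (-2.17) or either E12.5 female array (-2.65 and -2.44). Both calls were also lost without both second E13.5 arrays (-3.02 and -2.92). The 2 probe sets were dim in E13.5 females and above the table median in E12.5 females. Their sizes are therefore differences of signal and not ratios of transcript amounts.

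In males the same probe sets read 4.52 and 4.86, and 4.57 and 4.80, at E13.5, against 6.32 and 5.20, and 5.02 and 5.69, at E12.5, and their steps of -1.07 and -0.67 did not pass. Between the sexes at E13.5, males were higher by 1.24 and 1.22 at the 2 probe sets, which did not pass (limma adjusted p = 0.0728 and 0.0691). The fourth Spry4 probe set was dim everywhere, at 2.08 or below. With the mean of all 4 probe sets, Spry4 passed in the female step (-1.35, limma adjusted p = 0.039).

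Counted over probe sets, the female step from E12.5 to E13.5 gave 4 of the 26 member probe sets (2 of Etv5 and 2 of Spry4, all lower at E13.5), where 0.618% of all probe sets passed. Between the sexes at E13.5, 4 of 26 passed (1 of Fgfr3 and 1 of Fgfr1 lower in males, 2 of Etv5 higher), where 6.41% of all did. At E12.5 the 1 was Fgfr3, beside 1.29% of all, and in the step of females from E11.5 it was Fgfr3 again, beside 0.87%. Probe sets of a gene share its transcripts, so they are not separate observations.

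**Figure D2:**
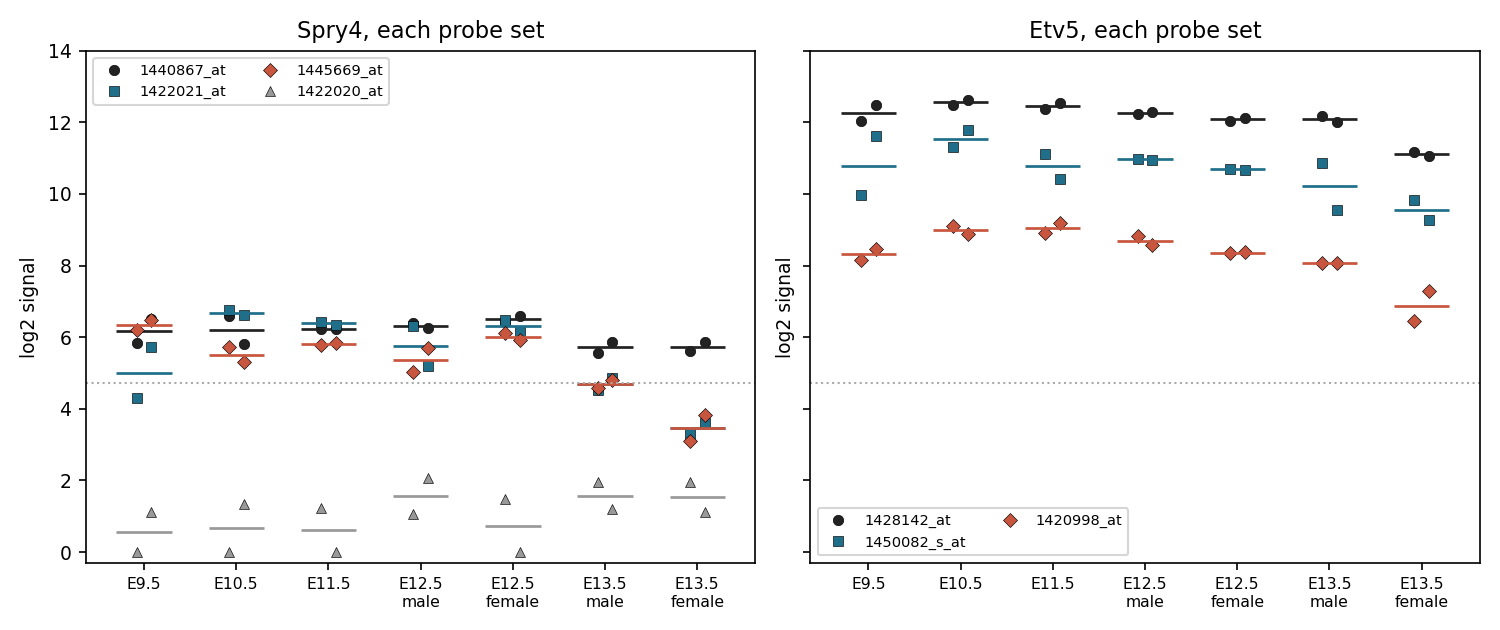
Log2 signal of each probe set of Spry4 (left) and Etv5 (right) on each array, by group, with 2 points per group and a line at the mean; the dotted line is the table median of 4.72. Spry4 probe sets 1422021_at and 1445669_at lie between 3.09 and 3.84 in E13.5 females and between 5.91 and 6.47 in E12.5 females, while 1440867_at stays at 5.56 or above.

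Dusp6, the phosphatase that inactivates ERK, differed by far the most between the E10.5 replicates. It read 8.40 and 8.87 at E9.5, 8.41 and 4.49 at E10.5, and 6.12 and 5.40 at E11.5. The later arrays gave 6.16 and 7.55 in E12.5 males against 5.98 and 6.44 in E12.5 females, and 5.15 and 5.94 in E13.5 males against 4.48 and 5.02 in E13.5 females. The sexes overlapped at E12.5, while the E13.5 males lay just above the E13.5 females.

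The mean of Dusp6 was highest at E9.5 (8.64) and lowest in E13.5 females (4.75), and no comparison passed. For E10.5 against E9.5 the difference was -2.19 (SE 0.93, limma adjusted p = 0.286). It was -4.14 without E10.5 replicate 1 (limma adjusted p = 0.00616) and -0.23 without E10.5 replicate 2 (limma adjusted p = 0.969). The SE of 0.97 in the later comparisons leaves intervals of about 2 log2 units either way, such as -1.35 to 2.94 for males against females at E13.5.

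Spry2 read 9.58 and 8.69 at E9.5, 8.72 and 7.41 at E10.5, and 7.85 and 8.12 at E11.5. It then stood between 7.64 and 8.43 on the 8 sexed arrays, with 8.0 and 8.43 in E13.5 males against 7.64 and 7.94 in E13.5 females. E10.5 against E9.5 gave -1.07 (limma adjusted p = 0.249), and -1.73 without E10.5 replicate 1 (limma adjusted p = 0.0183), where 1928 genes passed in place of 193. Its other probe set was dim on all arrays.

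Spry1 was the steadiest of the Sprouty genes, between 7.91 and 8.79 on the 14 arrays. It read 8.79 and 8.78 in E12.5 males against 8.67 and 8.66 in E12.5 females, and 8.67 and 8.72 in E13.5 males against 8.06 and 8.26 in E13.5 females. The difference at E13.5, where the sexes did not overlap, was 0.54 (SE 0.21) and did not pass (limma adjusted p = 0.163).

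**Figure D3:**
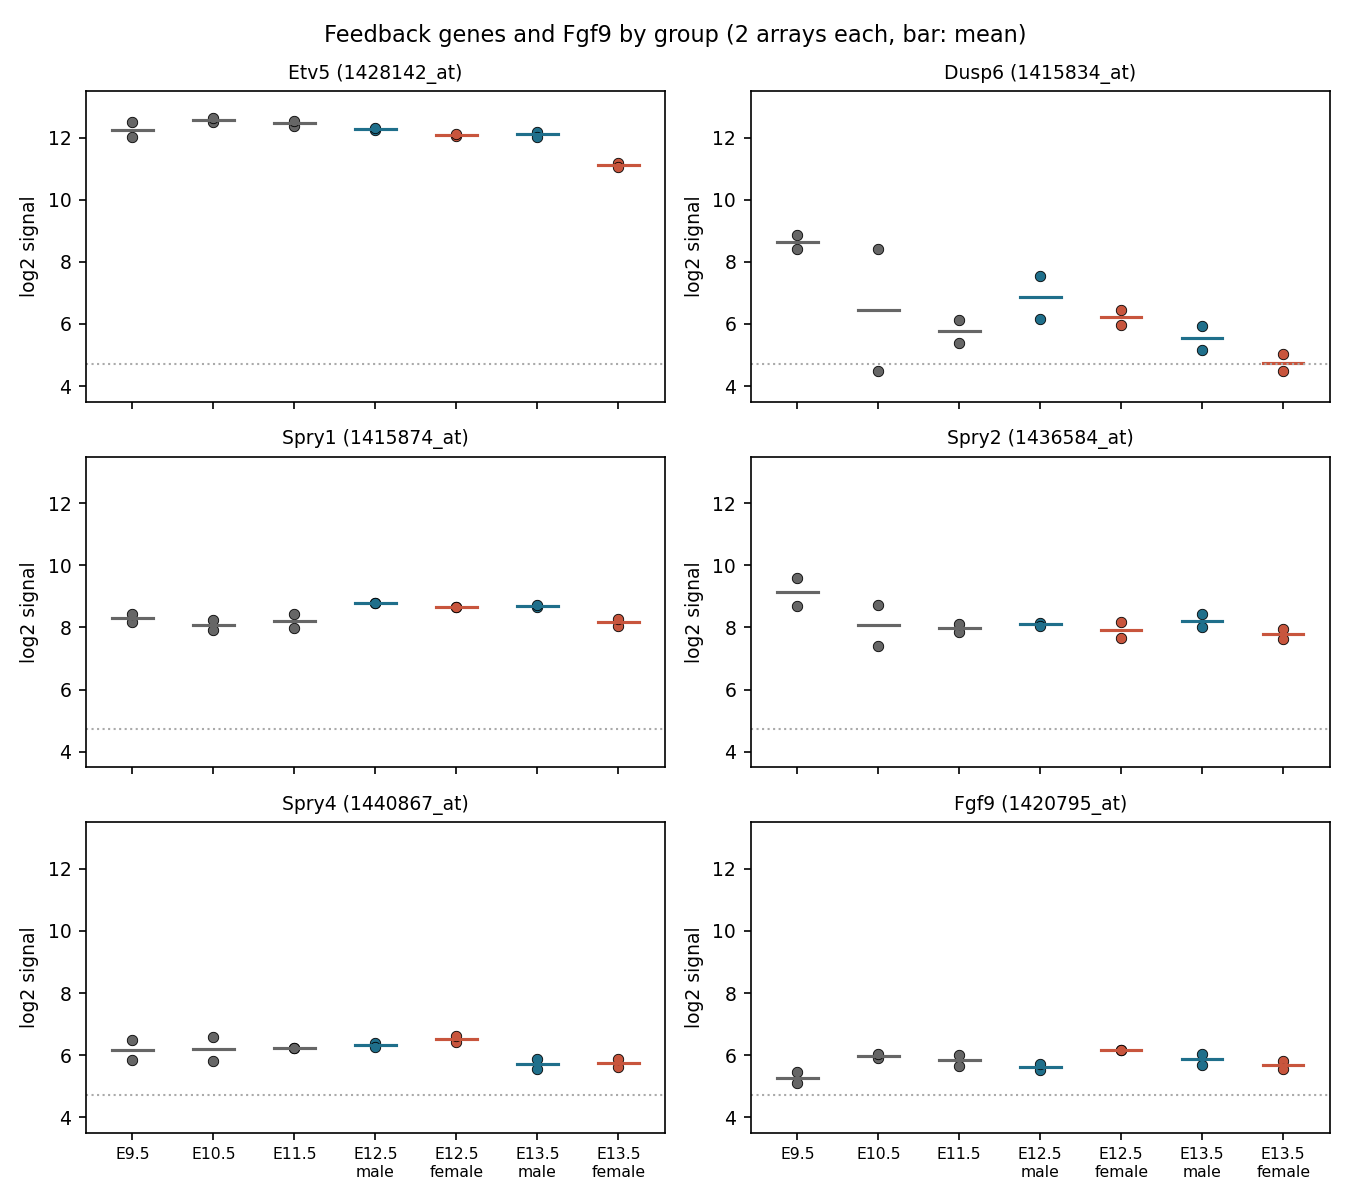
Log2 signal of the representative probe sets of Etv5, Dusp6, Spry1, Spry2, Spry4 and Fgf9 on each array, by group, with 2 points per group, a bar at the mean and a dotted line at the table median of 4.72. The E13.5 female arrays are the lowest for Etv5, at 11.17 and 11.06, and the E10.5 replicates of Dusp6 lie apart at 8.41 and 4.49.

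Before the sexes were separated, none of the 10 members passed between consecutive ages. For E10.5 against E9.5, 0 of the 10 members passed and 193 of 18193 genes did (1.06%), with 2932 at an unadjusted p under 0.05. Strain, RNA kit, PCR cycles and the absence of a described sort differ between these groups together with age and cannot be told apart from it. The blood marker list, 5 genes of which 2 passed as lower at E10.5, averaged 6.52 and 6.83 on the E10.5 arrays against 8.25 and 9.43 on the E9.5 arrays, and the BioB spike-in control read 8.14 and 8.36 at E9.5 and between 4.94 and 5.30 on all other arrays. The part of these in the member values was not tested. For E11.5 against E10.5, 0 of the 10 members passed, and 14 genes in all (0.077%), with 1287 at an unadjusted p under 0.05.

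**Figure D4:**
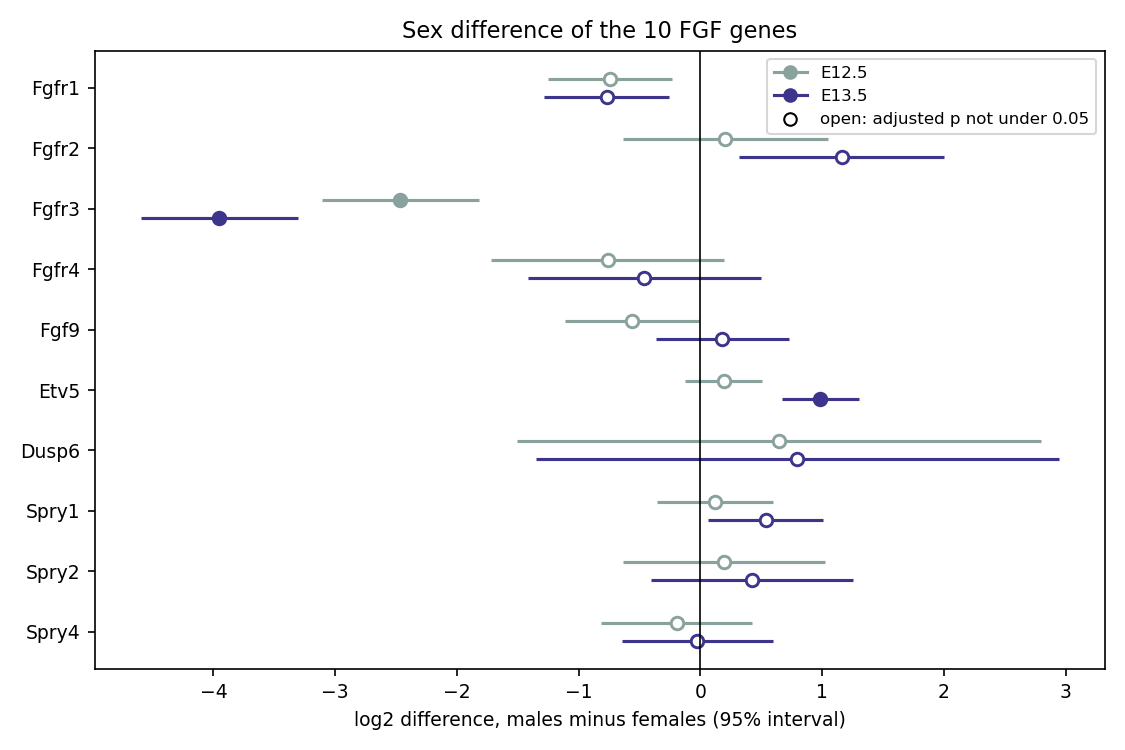
Log2 difference of males minus females for the 10 genes at E12.5 and E13.5, with 95% intervals from the fit of 12 arrays; filled points passed at an adjusted p under 0.05 and open points did not. Fgfr3 lies at -2.46 and -3.95 and Etv5 at 0.19 and 0.98, while the intervals of Dusp6 span more than 4 log2 units.

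Over the 10 genes the median difference between males and females was 0.30 at E13.5 and -0.04 at E12.5, and over all genes it was -0.02 and -0.045. In the steps to E13.5 the median of the 10 was -0.34 in females and -0.11 in males, against 0.025 and 0.05 over all genes. In the steps from E11.5 to E12.5 it was 0.31 in females and -0.20 in males, against 0.05 and 0.005. The earlier comparisons gave -0.03 for E11.5 against E10.5 and -0.10 for E10.5 against E9.5, against 0.015 and -0.065 over all genes.

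The sex comparisons rest on sorted cells that also carried signal of markers from other cells. Of 8 supporting cell markers of the testis, Cst9 and Ptgds were higher in males at both ages, and no other passed. Aard lay below the females without overlap at E12.5 (7.94 and 8.21 in males against 8.72 and 8.86 in females), as did Sox9 at E13.5. Dhh and Gata4 lay above the females without overlap at both ages, and Wt1 did so at E13.5. The list mean was 5.80 to 6.15 in males against 5.06 to 5.07 in females at E12.5, and 6.24 to 6.42 in males against 4.67 to 4.96 in females at E13.5. Sox9, a defining factor of these cells, was dim on all 14 arrays (2.05 to 4.23), and Amh read 5.67 to 6.24 on all of them.

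Of 6 ovary supporting markers, Irx3, Bmp2 and Wnt4 were lower in males at E13.5, and the list mean was 5.27 to 5.74 in males against 6.29 to 6.31 in females. Rspo1 (1.14, limma adjusted p = 0.155) and Fst (0.78, limma adjusted p = 0.298) lay the other way without overlap and did not pass. Foxl2, which defines granulosa cells, read 5.19 to 6.02 on all arrays. Of 10 immediate early and heat shock genes, Zfp36 and Hspa1a were higher in males at E13.5, and the list mean was 6.56 to 6.74 in males against 6.27 to 6.43 in females. Fos (-1.71, limma adjusted p = 0.131), Jun (-0.49) and Fosb (-0.61) lay below the females without overlap and did not pass. No gene of these 3 lists was at 0 on any array. None of 9 markers of gonadal mesenchyme, 6 of endothelium and 5 of blood passed between the sexes at either age. Their part in the Fgfr3 and Etv5 differences was not tested. The Gapdh 3′ to 5′ difference was 3.16 in E13.5 male replicate 2 and 3.09 in E13.5 female replicate 2, against at most 2.53 elsewhere. Without these 2 arrays the sex difference at E13.5 was -4.60 for Fgfr3 and 1.01 for Etv5, and both passed in the fit of genes. In the fit of probe sets Fgfr3 passed and both Etv5 probe sets lost their calls (limma adjusted p = 0.0762 for 1428142_at and 0.057 for 1420998_at).

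Other genes of the pathway were read from 6 lists of 87 measured genes. In the sex comparison at E13.5, 21 of the 87 passed, and the share of all genes was 10.2%. The count of 2 of 21 FGF genes lies near that share. The counts of 3 of 17 adaptors, and 1 higher and 1 lower among 10 other receptor tyrosine kinases, lie above it but are small. The lists were chosen with earlier results of these data known, so none was tested against the share of all genes. Among 21 further FGF genes, 2 were lower in E13.5 males than in E13.5 females and 0 higher. They were Fgf11 (3.47 and 3.86 in males against 7.60 and 6.75 in females, -3.51) and Fgf13 (7.06 and 7.30 in males against 9.46 and 8.99 in females, -2.04), both intracellular FGF homologous factors that do not act as classical secreted ligands. Fgf11 was dim in males, so its value is a difference of signal from a level near the floor. The list's median difference was -0.26, and that of all genes -0.02. At E12.5, Fgf13 alone passed (-1.46), and it lost that call without any one of the 4 arrays, with values from -1.70 to -0.91 over the alternatives.

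Of 19 co-receptors and modulators, 4 were higher and 3 lower in E13.5 males, with a list median of -0.28. Sdc4, a syndecan (2.71), Gpc4, a glypican (2.08), Sulf1, a heparan sulphate sulphatase (1.84), and Ext1, a heparan sulphate polymerase subunit (1.46), were higher. Flrt3, a membrane protein that binds FGF receptors (-3.47), Hs6st2, a heparan sulphate sulphotransferase (-1.85), and Sdc1, another syndecan (-1.81), were lower. Flrt3 (1.85 and 3.77) and Hs6st2 (3.31 and 3.97) were dim on both male arrays, and their values have the same limit. The naming rule takes 4 genes per list, and Sulf1, Ext1 and Sdc1 were added after their values were seen. Of 17 adaptors and RAS-ERK cascade genes, 3 were lower and 0 higher: the docking protein Gab2 (-2.57), the RAS exchange factor Sos2 (-1.31) and the kinase Araf (-1.0), with a list median of -0.10.

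Of 13 other feedback inhibitors, 2 were higher and 2 lower in E13.5 males, with a median of 0.05. The MAP kinase phosphatase Dusp4 read 11.07 and 10.78 in E13.5 males against 9.66 and 9.65 in E13.5 females (1.27), and the membrane inhibitor Il17rd 11.04 and 11.05 against 9.99 and 9.98 (1.06). The phosphatase Dusp5 read 4.92 and 5.38 in E13.5 males against 8.92 and 7.72 in E13.5 females (-3.17), and Dusp9 10.26 and 10.77 against 12.42 and 12.41 (-1.90). Feedback genes of one class thus lay on opposite sides, with no overlap between the sexes in these 4.

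Of 7 other transcriptional targets of ERK, Etv4, a factor of the same subfamily as Etv5 (1.41), and the early response gene Ier3 (1.48) were higher in E13.5 males. Ccnd1, the cyclin D1 gene, was lower (7.21 and 7.21 in males against 10.36 and 9.79 in females, -2.87). The list median was -0.06. Of 10 other receptor tyrosine kinases, Erbb3 was higher (1.66) and Met, the hepatocyte growth factor receptor, lower (4.39 and 5.29 in E13.5 males against 9.0 and 9.04 in E13.5 females, -4.18), with a median of -0.14. Met was dim in E13.5 male replicate 1, so its value is a difference of signal from a level near the floor.

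Of these 21 calls at E13.5, 10 held under every alternative tried (Fgf11, Fgf13, Sdc1, Gpc4, Gab2, Dusp4, Dusp5, Dusp9, Ccnd1 and Met). Sdc4 (1.91 to 3.16 over the alternatives), Hs6st2 (-2.48 to -0.34) and Sos2 (-1.56 to -1.05) lost theirs without any one of the 4 arrays. Hs6st2 also lost its call with the mean of all probe sets (-0.34, limma adjusted p = 0.773), as did Araf (-0.52) and Etv4 (0.74). Flrt3 (-4.47 to -2.51) lost it without E13.5 male replicate 1 or either female array, and Araf and Etv4 (highest value 1.81) without either male array or E13.5 female replicate 1. Ext1, Sulf1, Il17rd and Ier3 lost theirs with both second E13.5 arrays left out, as did the 6 genes just named, and Erbb3 with the mean of all probe sets (0.77). A total of 8 of these genes also passed at E12.5 in the same direction, where 2.39% of all genes passed. Fgf13, Gab2, Dusp5, Dusp9, Ccnd1 and Met were lower in males, and Ext1 and Erbb3 higher. Of those 8 calls, Met alone held under every alternative, and Dusp9 lost its own without E12.5 female replicate 2. No pathway gene passed in the test of the change of the sex difference.

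**Figure D5:**
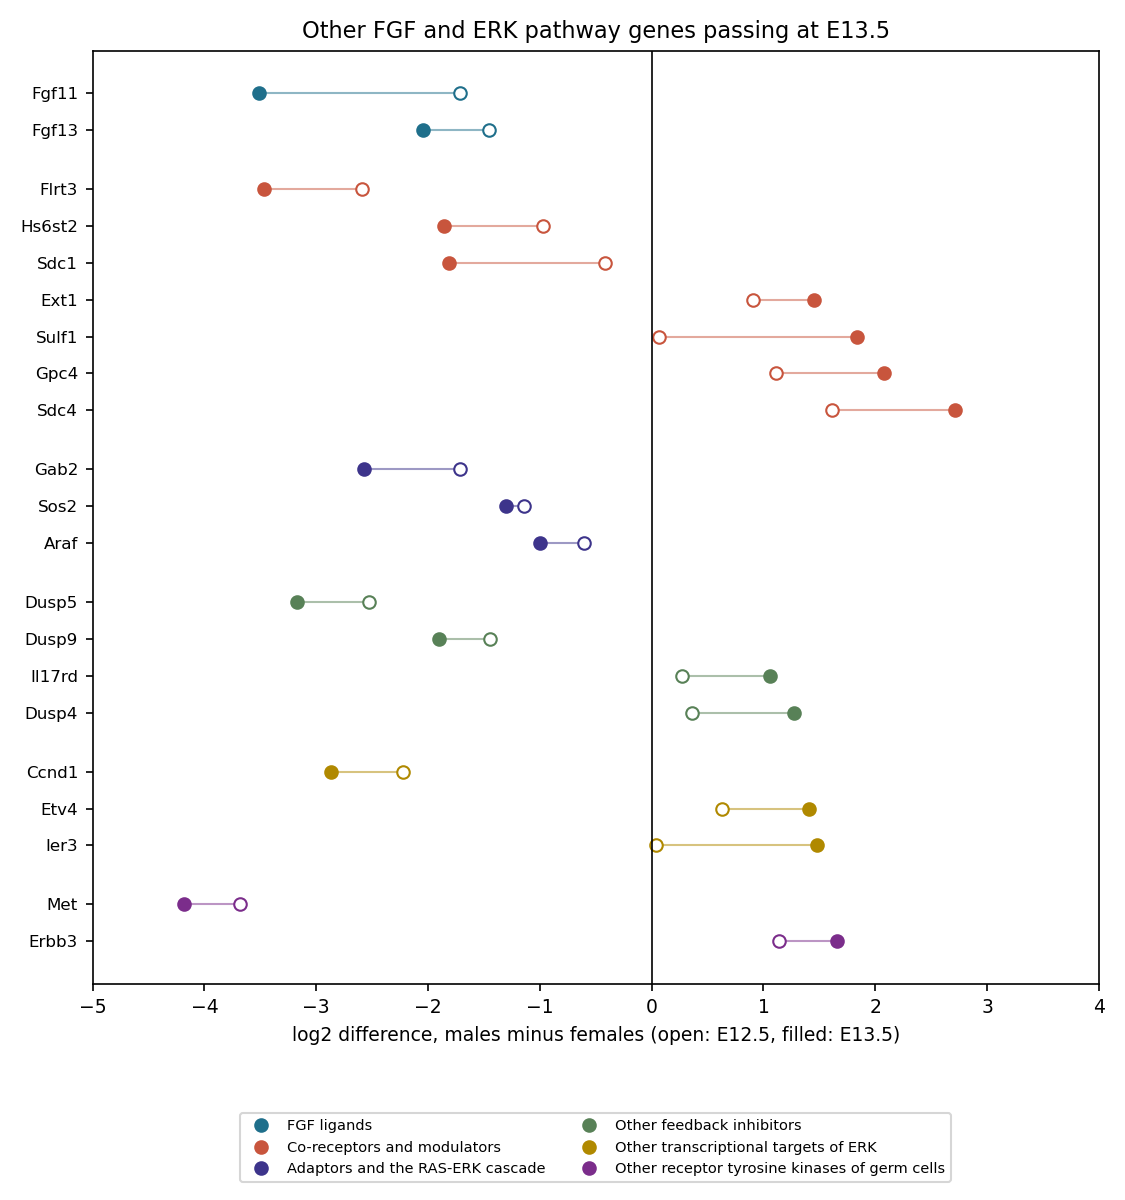
Log2 difference of males minus females at E13.5 (filled) and E12.5 (open) for the 21 pathway genes outside the 10 members that passed at E13.5, coloured by list. Met lies farthest below 0 at -4.18, and Sdc4 farthest above at 2.71.

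In the female step from E12.5 to E13.5, 5 of the 87 pathway genes passed, beside 1.87% of all genes. Etv4 read 6.61 and 7.34 in E13.5 females against 9.17 and 8.96 in E12.5 females (-2.09), Dusp4 9.66 and 9.65 against 10.97 and 10.99 (-1.32), and Ier3 5.72 and 5.53 against 6.86 and 6.86 (-1.24). Ccnd1 rose by 1.83, and Fgf11 by 2.15. Over lists, 2 of 7 ERK targets fell and 1 rose, and 1 of 13 feedback inhibitors fell. The remaining 4 targets and 12 inhibitors had no call. None of these 5 calls held under every alternative: Dusp4 (-1.35 to -1.31) was lost without E13.5 female replicate 1 or either E12.5 female array, Etv4 (-2.46 to -0.89) without the same arrays, and Ccnd1 (1.55 to 2.12), Ier3 (-1.33 to -1.14) and Fgf11 (1.16 to 2.57) without any one of the 4.

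In E12.5 females against E11.5, 6 of the 87 pathway genes passed, beside 1.86% of all genes. Dusp9 (2.33), Ccnd1 (2.28), Met (2.15), Sos2 (1.71) and Araf (1.08) were higher and Ier3 (-1.80) lower, and Dusp9 alone held its call under every alternative. In E12.5 males against E11.5, 4 of the 87 passed, beside 1.01% of all genes. Gpc4 (1.51) and Ext1 (1.0) were higher and Ier3 (-1.76) and Met (-1.54) lower. Only the Ier3 call outlasted more than 3 of the 8 alternatives, and it was lost without E12.5 male replicate 2 or E11.5 replicate 2. In males between E12.5 and E13.5, 2 of the 87 passed, beside 2.09% of all genes. Sdc1 fell by 1.98, under every alternative. Ret, a receptor of glial cell line-derived factors, rose by 1.63, and that call was lost without any one of the 4 arrays. For E10.5 against E9.5, 2 of the 87 passed, beside 1.06% of all genes. These were the adaptors Gab1 (1.27) and Cbl (1.18), both higher, and neither held under every alternative. The number of arrays limits the precision of all of these values.

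For the members whose group means spanned at least 2 log2 units, the genes of most similar profile were taken by Pearson correlation over the 14 arrays. Fgfr3 spanned 3.95 and Dusp6 3.88, and 5679 other genes were candidates, with a mean above the table median and a span of at least 1. The nearest to Fgfr3 were Bhmt (r = 0.961), Haus7 (r = 0.955) and Syngr2 (r = 0.955), and over the 12 arrays without E9.5 these were 0.960, 0.964 and 0.951. The nearest to Dusp6 were Top1 (r = 0.940), Ino80d (r = 0.936) and Mrpl39 (r = 0.933), at 0.917, 0.911 and 0.894 without E9.5. The arrays share groups, so these values describe a likeness of profile only. The r of Fgfr3 follows its female arrays and that of Dusp6 includes the spread between the E10.5 replicates.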

How the data were processed

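The members and gene lists were chosen with earlier results of these data known. The authors deposited log2 signals per probe set, normalized over all 14 arrays together; for this the authors normalized the earlier E9.5 arrays again, as the design text states. Per the labels, cDNA was amplified by PCR and biotin-labelled cRNA was made by the Affymetrix one-cycle protocol. Software and background correction: not given in the sources used here. That the scale is log2 follows from values of 0 to 14.04. Zeros made up 1.54% to 1.83% of an array.

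Probe sets with several symbols (932) or none (9160) were left out. A gene stood for its probe set of highest mean over the arrays of a fit, and a second fit held all single-symbol probe sets. limma 3.58.1 in R 4.3.3 fitted 1 mean per group with an intensity trend, on 12 arrays from E10.5 on and on 14 for E10.5 against E9.5, two-sided. This made 9 comparisons. The fit was tested on simulated data. Of the pathway lists the largest changes that passed are named, at most 4 per list and comparison. Sulf1, Ext1 and Sdc1 were added beyond this for the sexes at E13.5, after their values were seen. Of 95 listed pathway symbols 87 were measured, and the others were not analysed here. Alternatives were quantile normalization, dim genes left out, the mean of all probe sets, the replicate number as a block, each array left out in turn and, chosen after seeing the data, both second E13.5 arrays left out and the same settings for the member probe sets that passed. Depth has no counterpart on arrays: their number limits the precision.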

Additional observations from a re-analysis of the deposited data

Results flagged for a closer look

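The step from E11.5 to E12.5 differed between males and females for 9 of the genes read, by the test of the difference itself (limma, adjusted over all genes). Both steps share the unsexed E11.5 arrays, so each value equals the sex difference at E12.5 and restates that comparison, in which 435 of all genes passed (2.39%). The male step minus the female step was -2.46 for Fgfr3 (adjusted p = 0.00164), from -0.41 in males and 2.06 in females. Met held under every alternative at -3.69 (adjusted p = 0.000138), from -1.54 in males and 2.15 in females. Ccnd1 gave -2.23 (adjusted p = 0.0147), from 0.06 in males and 2.28 in females, and Dusp9 gave -1.45 (adjusted p = 0.00367), from 0.89 in males and 2.33 in females. Ext1 gave 0.91 (adjusted p = 0.0326), from 1.0 in males and 0.10 in females. The value was -1.46 for Fgf13, -1.71 for Gab2, -2.52 for Dusp5 and 1.14 for Erbb3, whose steps passed in neither sex.

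Fgfr3, Ext1, Fgf13 and Erbb3 lost this call with the mean of all probe sets, at -1.13, 0.19, -0.91 and 0.57. Ext1, Fgf13, Dusp5 and Erbb3 lost it without any one of the 4 arrays, Ccnd1 without E12.5 male replicate 1 (-1.59) or either female array, Gab2 without E12.5 male replicate 2 or either female array, and Dusp9 without E12.5 female replicate 2 (-1.39). Groups of 2 arrays allow no test for an outlying array.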

How the results depend on the processing

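Of 764 values of the 10 genes under the alternatives, 691 kept their direction and their side of the threshold, 10 lost a call, 5 gained one, 58 changed sign without any call and 0 reversed a call. Of 407 values of the named pathway genes, 264 kept their call, 142 lost it and 1 reversed: Cbl for E10.5 against E9.5, at -0.0867 with the mean of all probe sets. With that mean the member count was 0 for E12.5 females against E11.5, 0 for the sexes at E12.5 and 2 for the female step to E13.5, and the gene counts were 224, 110 (E12.5 males against E11.5), 225 (female step to E13.5) and 0 (change of the sex difference). Quantile normalization gave 29 genes and leaving out dim genes 9 for E11.5 against E10.5. With both second E13.5 arrays left out, 15 genes and 0 members passed in the female step, 13 genes in the male step, 409 between the sexes and 0 in the change of the sex difference.

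Leaving out each array in turn gave 51 to 1928 genes for E10.5 against E9.5 (0 to 2 members), 1 to 39 for E11.5 against E10.5, 23 to 169 for E12.5 females (0 to 1 members) and 2 to 101 for E12.5 males against E11.5. It gave 0 to 89 for the female step (0 members throughout), 16 to 167 for the male step, 93 to 147 between the sexes at E12.5, 912 to 1046 at E13.5 and 0 for the change of the sex difference. The lone array of a group is then assumed to vary like the others.

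The main fit did not treat the replicate numbers as pairing the samples. Over 21 pairs of groups the correlation of same-numbered deviations ran from -0.22 to 0.28, with 3 over 0.1 and 4 under -0.1. Between E13.5 females and E13.5 males it was 0.19, so same-numbered arrays of that comparison deviated together to some extent. With the replicate number as a block, 1892 genes passed between the sexes at E13.5 and Fgfr2 also did (1.16, limma adjusted p = 0.0447), the calls lost included those of Sos2 and Fgfr1 1436551_at (limma adjusted p = 0.0552) between the sexes at E13.5 and of Etv5 1420998_at in the female step (limma adjusted p = 0.0532), 0 genes passed in the change of the sex difference, and the count for E10.5 against E9.5 was 170. The cause of these changes was not tested.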
